A study of Mus musculus with 6 samples.

Results

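Fatty acid synthesis was read through 10 genes. Acly, Me1, Acaca, Acacb, Fasn, Elovl6, Scd1 and Dgat2 encode enzymes that make, modify or store fatty acids, Srebf1 encodes a transcription factor of the pathway and Thrsp a small protein linked to it. Every probe set with 1 of these names as its single gene symbol was taken, which gave 24 of the 45101 probe sets on the array and covered 10 of the 10 genes. Of the 24, 18 lay above the brightness filter, with at least 1 for each gene. The genes were chosen by their role in the pathway, with the signals of these same arrays in both groups already known, so the differences between groups in these 10 genes are given as a description, with no test.

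RNA came from the skeletal muscle of the whole hind limb of 6 mice, all 4 weeks old, each taken separately, per the labels, and read on 1 Affymetrix array. The genotype was wild type in 3 mice (replicates 1 to 3), and the other 3 had a deficiency of the laminin alpha 2 chain, a basement membrane protein around muscle fibres (called deficient here, replicates 1 to 3). The labels name neither the allele nor the strain or sex. The labels name no sorting of cells, and in such bulk tissue fewer cells of a type and less RNA per cell cannot be told apart.

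Newly made fatty acids start from citrate, which ATP citrate lyase (Acly) splits to acetyl-CoA. Acetyl-CoA carboxylase makes malonyl-CoA from it, fatty acid synthase (Fasn) joins these units to palmitate with NADPH that malic enzyme (Me1) helps to supply, and Elovl6 and Scd1 lengthen and desaturate the product before Dgat2 builds it into triglyceride. Transcription of these genes is known to rise with feeding and insulin through SREBP-1c, a product of Srebf1, and to drop with fasting. Adipose tissue and liver make most fatty acids, while in muscle malonyl-CoA from the Acacb enzyme is best known as a brake on fatty acid entry into mitochondria.

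Signals are in the linear units of the deposited table, and differences are on the scale of log2(signal + 16). Each SE is that of the limma fit, which draws a gene's variance toward that of genes of like signal. In genes with a wide spread among arrays, such as Fasn, it is smaller than an SE from the gene's own values alone. Array medians lay between 19.9 and 26 signal units. Lama2, the gene of the missing chain, read 326.2 to 428.7 in the wild type arrays and 31.1 to 140.4 in the deficient ones (adjusted p = 0.0207, limma). The skeletal muscle markers Acta1 and Ckm were bright in every array, from 9132.1 to 15099.6 signal units. Deficient replicate 3 stood apart from the others. It held 87 of 13113 genes (0.663%) at least 2-fold below the lowest of the other 5 arrays and 58 (0.442%) at least 2-fold above the highest, on signal + 16, while the other arrays held 9 to 34 and 7 to 37 such genes. The Y-linked transcript Eif2s3y read 414.6 to 573.7 in 4 arrays, 10.7 in wild type replicate 3 and 9.1 in deficient replicate 3. Xist read 1163.1 and 1839.1 in those last arrays, and 396.3 in deficient replicate 1, which also carried Eif2s3y; whether that library holds RNA of a single mouse was not tested.

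The average signal of lipogenic genes was lower in deficient than in wild type muscle. By the brightest probe set of each gene, most of that difference came from deficient replicate 3. The median log2 difference over the 10 genes, deficient minus wild type, was -1.11, with a negative value in 9 of 10, while the median over all 13113 genes tested was 0.02. Without deficient replicate 3 the median was -0.44, with a negative value in 10 of 10. Both medians of the 10 genes use the brightest probe sets. Without that array, other probe sets above the filter gave a larger drop for Scd1 (-1.19), Thrsp (-0.91), Dgat2 (-0.87) and Me1 (-0.72). For Elovl6 the drop was smaller than in the brightest probe set (-0.87 against -1.02), and for Acly the others gave -0.87, -0.19 and -0.17 against -0.55. In deficient replicate 3, 8 of the 10 genes lay at least 2-fold below the lowest of the other 5 arrays, against the 0.663% of all genes that did so. These were Fasn, Acly, Thrsp, Elovl6, Acaca, Me1, Scd1 and Dgat2. That array was picked out after its values were seen. The mean signal of deficient replicates 1 and 2 was between 3.40 and 17.1 times that of replicate 3 in these 8 genes. The other 2, Srebf1 and Acacb, were not low in that array.

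**Figure D1:**
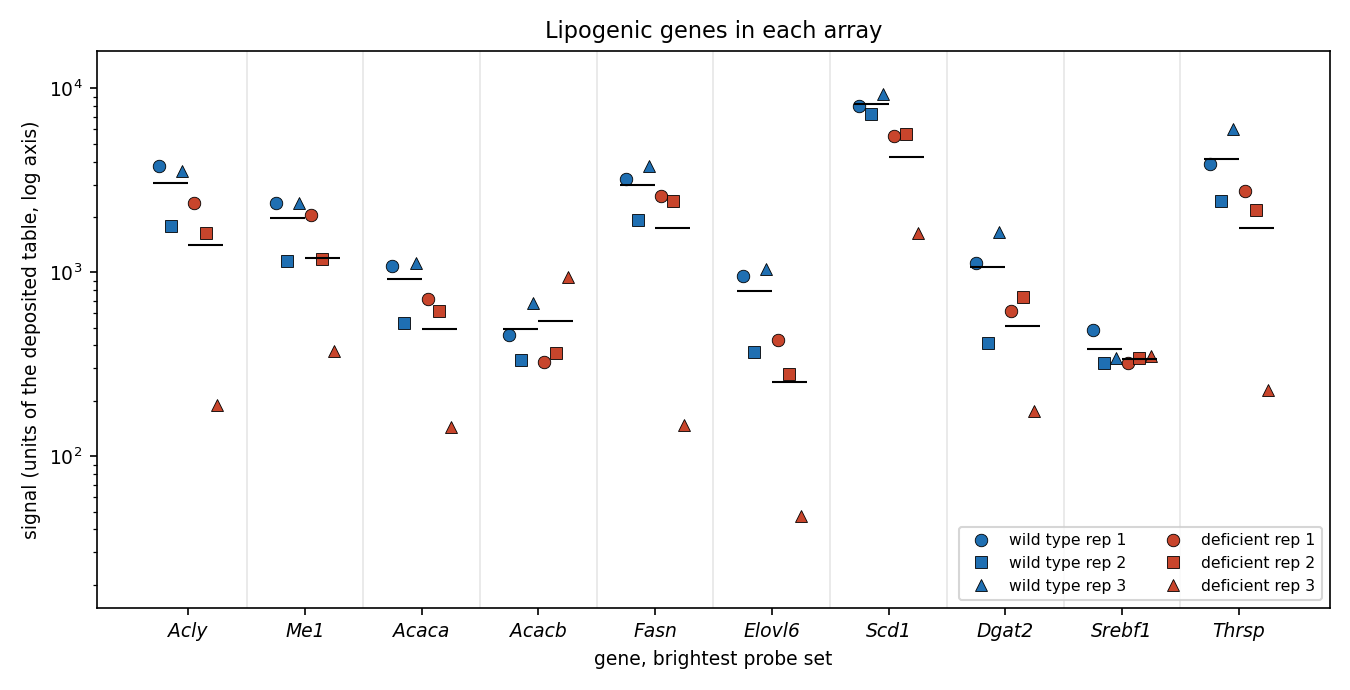
Signal (log axis, units of the deposited table) of the brightest probe set of each of the 10 genes in the 6 arrays, with points for single arrays (blue wild type, red deficient, marker shape for the replicate number) and lines for group means (n = 3). Deficient replicate 3, the red triangle, lies below all other points in 8 genes, lies highest in Acacb and lies among the others in Srebf1.

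The SD of the log2 values was larger among deficient than among wild type arrays in 9 of the 10 genes, and in 61.5% of all genes tested. The median SD of the log2 values was 1.22 in the deficient and 0.60 in the wild type group, against 0.28 and 0.22 over all genes tested. The wild type arrays were not uniform either. Wild type replicate 2 was the lowest of its group in 10 of 10 genes, and the highest wild type signal was 1.28 times the lowest for Scd1 and 4.03 times for Dgat2. With all arrays, groups did not overlap in 1 of the 10, Scd1, while over all genes 12.4% lay lower in every deficient array than in any wild type array. Without deficient replicate 3, Scd1 was again the 1 gene without overlap. The 12.4% does not cover that setting, where fewer arrays make it easier for groups to lie apart.

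The upstream sequences of 4 genes are shown because Fasn, Thrsp and Acly lay farthest below the other deficient arrays in deficient replicate 3, while Acacb was highest there. The RefSeq table of GRCm38.p6 held start sites for 8 of the 10 genes, 11 windows in all, and Scd1 and Dgat2 were not in it. Each run is the 250 bases before the start site, 5′ to 3′ on the gene's strand, with CCAAT and GGGCGG in capitals on either strand.
Fasn, chr11:120824548-120824797, minus strand: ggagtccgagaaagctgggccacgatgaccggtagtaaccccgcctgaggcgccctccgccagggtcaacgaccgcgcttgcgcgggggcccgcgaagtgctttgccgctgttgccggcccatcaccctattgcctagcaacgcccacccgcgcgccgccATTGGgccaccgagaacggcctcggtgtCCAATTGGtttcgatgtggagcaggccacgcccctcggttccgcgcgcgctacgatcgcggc
Thrsp, chr7:97417551-97417800, minus strand: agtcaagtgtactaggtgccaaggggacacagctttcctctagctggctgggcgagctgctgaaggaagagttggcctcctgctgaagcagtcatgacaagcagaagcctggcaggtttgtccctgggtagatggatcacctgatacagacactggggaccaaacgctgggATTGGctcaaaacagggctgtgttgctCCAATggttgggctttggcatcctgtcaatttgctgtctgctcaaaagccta
Acly, chr11:100528001-100528250, minus strand: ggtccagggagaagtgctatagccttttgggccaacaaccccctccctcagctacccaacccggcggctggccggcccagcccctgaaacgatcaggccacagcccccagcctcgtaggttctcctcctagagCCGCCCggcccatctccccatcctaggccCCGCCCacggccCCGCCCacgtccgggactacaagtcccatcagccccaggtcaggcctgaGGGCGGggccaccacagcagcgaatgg
Acacb, chr5:114165268-114165517, plus strand: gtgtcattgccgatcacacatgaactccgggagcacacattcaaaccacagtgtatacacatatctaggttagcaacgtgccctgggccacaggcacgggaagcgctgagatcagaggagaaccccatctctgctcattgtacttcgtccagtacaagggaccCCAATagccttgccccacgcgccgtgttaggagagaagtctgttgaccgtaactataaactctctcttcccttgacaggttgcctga
The CCAAT box, to which the factor NF-Y is known to bind, lay 3 times in the Fasn window, with overlapping matches that start at -62 and -59 on opposite strands and 1 at -90. It lay 2 times in the Thrsp window, at -79 and -52, and 1 time in the Acacb window, at -87. The Acly window held no CCAAT but 4 copies of GGGCGG, the core of a Sp1 box, at -117, -88, -76 and -27. Positions count back from the start site and give the first base of the match. CCAAT was in 6 and GGGCGG in 4 of the 11 windows, which belong to 5 and 3 genes, while 33.8% and 32.7% of all 32851 windows of this length held them. The E-box CACGTG and the sterol response motif TCACNCCAC, searched on both strands, were in none of the members' windows, and in 6.02% and 1.05% of all windows. CCAAT was present both in genes that were low in deficient replicate 3 and in Acacb, which was not. A link between these motifs and the signals was not tested.

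The first enzymes supply the carbon and the reducing power. Acly, which makes cytosolic acetyl-CoA, read 3801.8, 1793.4 and 3567.9 in wild type replicates 1, 2 and 3 and 2386.8, 1627.8 and 190.2 in the deficient ones. Its log2 difference was -1.64 (SE 0.757), and -0.55 without deficient replicate 3. The groups overlapped, since deficient replicate 1 lay above wild type replicate 2, and deficient replicate 3 was lower than any other array. Both other bright Acly probe sets had the same order in that array, at 292.3 against 1126 to 2472.7 elsewhere and at 54 against 349.8 to 1234.1, while 1 probe set just above the filter (4.8 to 34.1 signal units) did not, and 2 lay below it. Me1, the cytosolic malic enzyme that yields NADPH, read 2385.7, 1148.9 and 2387.5 in wild type and 2044.5, 1175.8 and 373.4 in deficient muscle. Its log2 difference was -0.94 (SE 0.528), or -0.27 without deficient replicate 3. Apart from deficient replicate 3, the deficient arrays lay within the wild type range in this probe set. The other Me1 probe set read 1190.4 to 1904.5 in wild type and 1537.3, 606.2 and 211 in deficient muscle. In that one deficient replicate 2 also lay below the wild type range, and the log2 difference without deficient replicate 3 was -0.72.

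The 2 acetyl-CoA carboxylases differed in the order of the arrays. Acaca, the cytosolic isoform that feeds fatty acid synthesis, read 1086.4, 530.4 and 1124.2 in wild type and 713.8, 612.3 and 143.5 in deficient muscle. Its log2 difference was -1.08 (SE 0.526), and -0.38 without deficient replicate 3, whose value was the only deficient one below the wild type range. Acacb, the isoform of the outer mitochondrial membrane, read 455.9, 332.2 and 678.2 in wild type and 323.9, 365.4 and 947.1 in deficient muscle. Here deficient replicate 3 was the highest of the 6 arrays, where in Acaca it was the lowest, and it lay 1.42 on the log2 scale above the mean of deficient replicates 1 and 2. The log2 difference between the groups was 0.04 (SE 0.392), and -0.43 without that array. A further probe set of each gene lay below the filter.

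Fasn, the synthase itself, showed the widest gap between deficient arrays. It read 3215.7, 1913 and 3794.9 in wild type and 2596.4, 2448.6 and 147.8 in deficient muscle. Deficient replicates 1 and 2 lay inside the wild type range, and their mean was 17.1 times the value of replicate 3. The log2 difference was -1.50 (SE 0.883), and -0.18 without deficient replicate 3, so nearly all of it rested on that array. Fasn has 1 probe set on the array with a single symbol.

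Elovl6 lengthens palmitate to stearate. It read 951.3, 368.3 and 1042.5 in wild type and 429.2, 279.2 and 47.1 in deficient muscle, a log2 difference of -1.86 (SE 0.651), the most negative of the 10. Without deficient replicate 3 it was -1.02, also the most negative of the 10, and deficient replicate 2 lay below the wild type range as well. The other bright Elovl6 probe set read 130 to 353.1 in wild type and 170.6, 97.3 and 26.9 in deficient muscle, the same order, and its remaining probe set lay below the filter. Scd1, which places the first double bond, was the brightest of the 10 genes' probe sets and the one without overlap. It read 8027.7, 7253.4 and 9280.1 in wild type and 5503.5, 5634.2 and 1635.7 in deficient muscle, with a log2 difference of -1.13 (SE 0.40), or -0.55 without deficient replicate 3. A dimmer Scd1 probe set did not overlap either, with 347.9 to 884.1 in wild type and 312.1, 190.6 and 51.5 in deficient muscle.

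Dgat2, which adds the last acyl chain to make triglyceride, had the widest spread in wild type. It read 1127.3, 412.2 and 1662.4 there and 617.5, 735.1 and 176.7 in deficient muscle, a log2 difference of -1.05 (SE 0.571), or -0.44 without deficient replicate 3. Of the 8 genes low in deficient replicate 3 it lay nearest to the 2-fold limit. Its other probe set read 325.2 to 869.7 in wild type and 286.6, 311.6 and 108.6 in deficient muscle, where the groups did not overlap.

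The regulators differed from each other. Srebf1, whose products switch on lipogenic genes, read 483.2, 322.1 and 343 in wild type and 321.6, 343.4 and 348.6 in deficient muscle. The 3 deficient arrays differed by 1.08 times at most, with deficient replicate 3 the highest of them, and the log2 difference between groups was -0.15 (SE 0.198). This is a single probe set, RefSeq lists 3 start sites for the gene, and the sources used here do not say which transcripts the probe set reads; processing of the protein is not measured by these arrays. Thrsp, known as Spot 14 and induced by thyroid hormone and feeding, followed the enzymes instead. It read 3867.6, 2435.7 and 6038.9 in wild type and 2777.2, 2193 and 229.9 in deficient muscle, a log2 difference of -1.75 (SE 0.772), or -0.64 without deficient replicate 3. A further bright Thrsp probe set read 124.9 in deficient replicate 3 and 974.3 to 3651.1 in the other 5 arrays, and the last Thrsp probe set lay below the filter. Over the 18 probe sets above the filter, deficient replicate 3 was the lowest array in 15, the exceptions being those of Acacb and Srebf1 and the dim one of Acly.

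**Figure D2:**
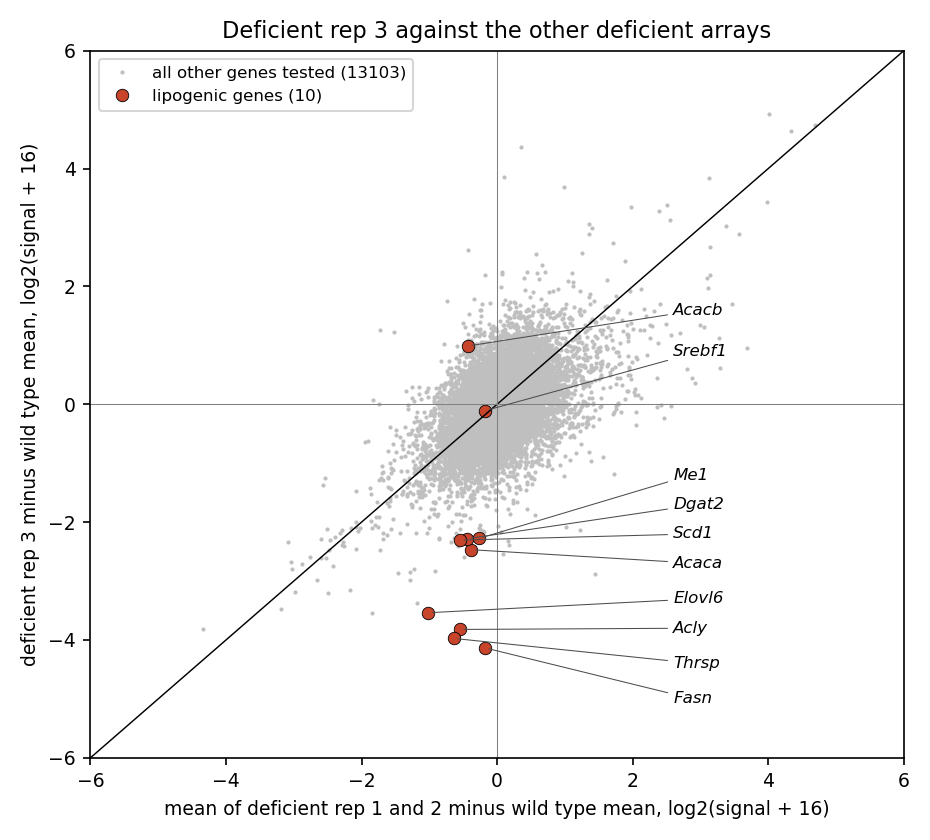
Each point is 1 of 13113 genes, with the difference from the wild type mean on log2(signal + 16) for the mean of deficient replicates 1 and 2 (x axis) and for deficient replicate 3 (y axis); the diagonal marks equal differences. The 8 genes low in deficient replicate 3 lie below the diagonal, with Fasn at -0.18 on the x axis and -4.13 on the y axis, while Srebf1 lies near it and Acacb above it.

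Arrays with and without the Y-linked transcript were compared apart, since deficient replicate 3 and wild type replicate 3 both lacked it. Between those 2 arrays the median log2 difference of the 10 genes was -2.98, and between the 2 deficient and 2 wild type arrays that carried Eif2s3y it was -0.22. Fasn differed by -4.54 in the first comparison and 0.02 in the second, Thrsp by -4.62 and -0.31, and Elovl6 by -4.07 and -0.75. Over all genes the medians were -0.02 and 0.04. With deficient replicate 1, which read both transcripts, left out of the second comparison, the median of the 10 genes was -0.37, with Fasn at -0.02, Thrsp at -0.48 and Elovl6 at -1.05. Wild type replicate 3, which lacked Eif2s3y as well, was the highest array in 7 of the 10 genes. With 1 array of each group in the first comparison there is no test.

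Genes elsewhere in lipid synthesis were read from 5 lists, 148 genes of which 128 were tested. The lists were drawn up by role in lipid metabolism, but with earlier results of these data known, so they were not chosen blind. By limma, adjusted over all genes tested, 0 of the 128 rose and 5 fell, while 1.3% of all genes rose and 1.46% fell. Their median log2 difference was -0.18. Of 21 tested genes of acetyl-CoA and NADPH supply and of mitochondrial fatty acid synthesis, 0 rose and 1 fell, with a median of -0.38. The elongation and desaturation list had 0 rising and 1 falling of 21 (median -0.21). Triglyceride and lipid droplet genes gave 0 rising and 2 falling of 27 (median -0.09), sterol genes 0 rising and 1 falling of 19 (median -0.40), and regulators 0 of 40 in either direction (median -0.01). Without deficient replicate 3, 8 of the other lipid genes passed, 1 higher and 7 lower, where 2.96% of all genes tested were called higher and 2.08% lower.

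The 5 genes that fell differed between the groups in all 3 deficient arrays rather than in 1. Tecr, the last reductase of the elongation cycle, read 3510.4, 3712 and 2959.8 in wild type and 1488.8, 1150 and 1362 in deficient muscle (log2 difference -1.34, SE 0.162, adjusted p = 0.00533 by limma), and both of its probe sets were lower. Its call held with each library left out in turn, and was lost with wild type replicate 3 as the only wild type library (adjusted p = 0.284 by limma, 8.77e-04 to 0.284 over all alternatives). Fitm1, a protein of lipid droplet formation in muscle, read 1905, 2108.3 and 1500.7 and then 878.3, 960.5 and 799.5 (log2 difference -1.04, adjusted p = 0.0199 by limma). Deficient replicate 3 was close to the other deficient arrays in both genes. Cidea, a lipid droplet protein of brown adipocytes, read 784, 567.4 and 1024.1 in wild type and 252.3, 329.4 and 305.8 in deficient muscle (log2 difference -1.34, adjusted p = 0.021 by limma). Sc5d, a sterol desaturase, read 338.9 to 377.6 and then 206.3, 130.8 and 185.7 (log2 difference -0.999, adjusted p = 0.0369 by limma), and Slc25a11, the mitochondrial oxoglutarate carrier, 1377.8 to 1493.3 and then 972.4, 822.4 and 750.8 (log2 difference -0.76, adjusted p = 0.0423 by limma).

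Of these 5 calls, 4 were lost when some single libraries were left out, and 3 of the 4 also with other processing. Leaving out wild type replicate 1 moved all 4 past 0.05 by limma, with an adjusted p of 0.105 for Fitm1, 0.104 for Cidea, 0.14 for Sc5d and 0.161 for Slc25a11. With wild type replicate 2 left out it was 0.0978 for Fitm1, 0.123 for Sc5d and 0.169 for Slc25a11, and with wild type replicate 3 left out 0.0523 for Cidea, 0.0994 for Sc5d and 0.0957 for Slc25a11. With deficient replicate 1 left out it was 0.0523 for Fitm1, 0.0639 for Cidea, 0.0541 for Sc5d and 0.0523 for Slc25a11. With deficient replicate 2 left out it was 0.0644 for Fitm1, 0.0736 for Cidea, 0.122 for Sc5d and 0.138 for Slc25a11. Over all alternatives the adjusted p ran from 0.00223 to 0.512 for Fitm1, 0.00363 to 0.133 for Cidea, 0.0116 to 0.448 for Sc5d and 0.0106 to 0.563 for Slc25a11. None of the 4 calls was lost without deficient replicate 3. Median centring gave 0.0788 for Slc25a11 and 0.062 for Sc5d by limma, no filter 0.0529 and 0.0504, and no intensity trend 0.0912 and 0.0616, with 0.0501 for Fitm1. Over all alternatives the log2 difference stayed between -1.18 and -0.76 for Fitm1, -1.75 and -1.14 for Cidea, -1.12 and -0.82 for Sc5d and -0.86 and -0.67 for Slc25a11.

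**Figure D3:**
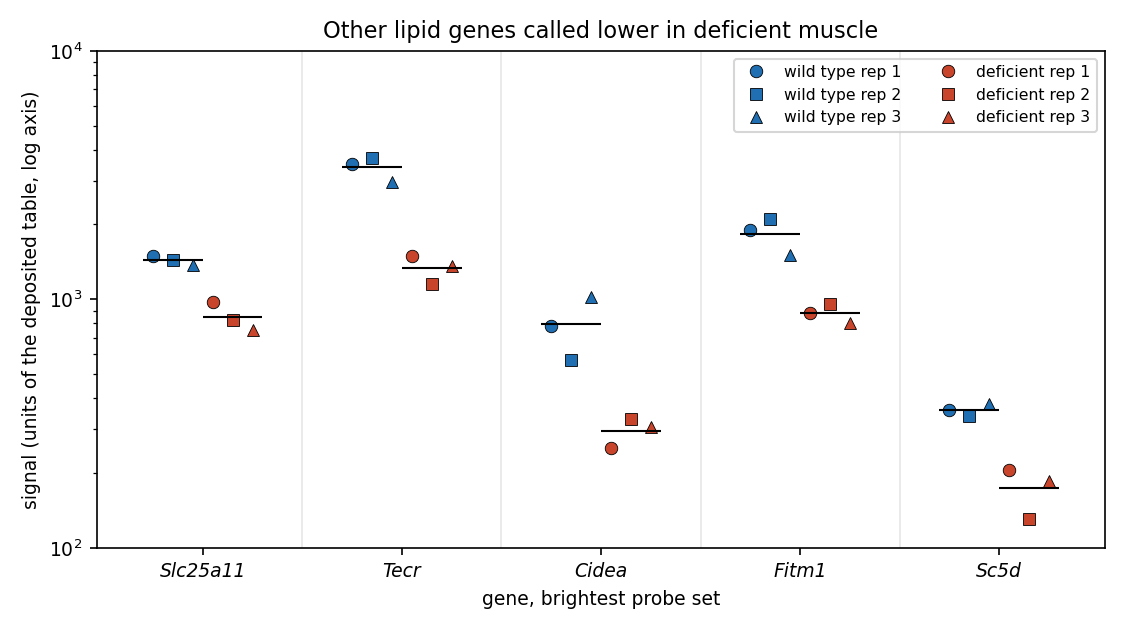
Signal (log axis, units of the deposited table) in the 6 arrays of the 5 other lipid genes that passed the test, with points for single arrays and lines for group means (n = 3). In each gene all 3 deficient arrays lie below all 3 wild type arrays, and deficient replicate 3, the red triangle, lies near the others.

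In lists with fewer than 2 calls the genes with the smallest p are given as values. Oxsm, the mitochondrial ketoacyl synthase, read 131 ± 29.9 in wild type and 66.9 ± 15.6 in deficient muscle (SD, n = 3, adjusted p = 0.0934 by limma), and its 5 probe sets disagreed in sign. Hacd1, the dehydratase of elongation in muscle, read 5801 ± 1119 and 3562 ± 215 (adjusted p = 0.0626 by limma). Nsdhl, a sterol dehydrogenase, read 206 ± 25.3 and 109 ± 44.0 (adjusted p = 0.118 by limma). Among regulators these were subunits of AMP-activated kinase, the enzyme that phosphorylates and inhibits acetyl-CoA carboxylase. Prkag3, its gamma subunit of glycolytic muscle, read 858 ± 170 and 369 ± 153 (adjusted p = 0.0538 by limma), and Prkab2 read 783 ± 80.6 and 390 ± 139 (adjusted p = 0.0608 by limma). None of these passed in the fit of all 6 arrays. By limma, Hacd1 passed without wild type replicate 3 (adjusted p = 0.0326), Prkag3 without deficient replicate 2 (0.0487), and Prkab2 without deficient replicate 3 (0.00646) and with the mean of all probe sets (0.0241).

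Deficient replicate 3 was also low in some other lipid genes. Of the 128, 8 lay at least 2-fold below all other arrays, next to 0.663% of all genes, and they were named after their values were seen. Of 19 sterol genes 4 did so. These were Fdps at 43.1 signal units against 151.8 to 319.9 elsewhere, Idi1 at 60.6 against 184.3 to 231.5, Lss at 4.2 against 30.1 to 58.4, and Mvk at 20.8 against 66.4 to 82.8, all enzymes on the way from mevalonate to sterols. In the supply list, 2 of 21 did. Slc25a1, the carrier that exports citrate from mitochondria, read 117.6 against 324.3 to 569.2 elsewhere, and the transketolase gene Tkt 800.1 against 2276.2 to 5176.4. In the triglyceride and droplet list, 2 of 27 did. Agpat2, which makes phosphatidic acid, read 117.2 against 441.1 to 1236.7 elsewhere, and G0s2, an inhibitor of the lipase ATGL, 151.8 against 419.8 to 1169.4. Plin5, a droplet protein of oxidative tissue, was highest there, at 603.8 against 84.5 to 249.4. No tested gene of elongation and desaturation (21) or of regulation (40) lay at least 2-fold below all other arrays there.

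**Figure D4:**
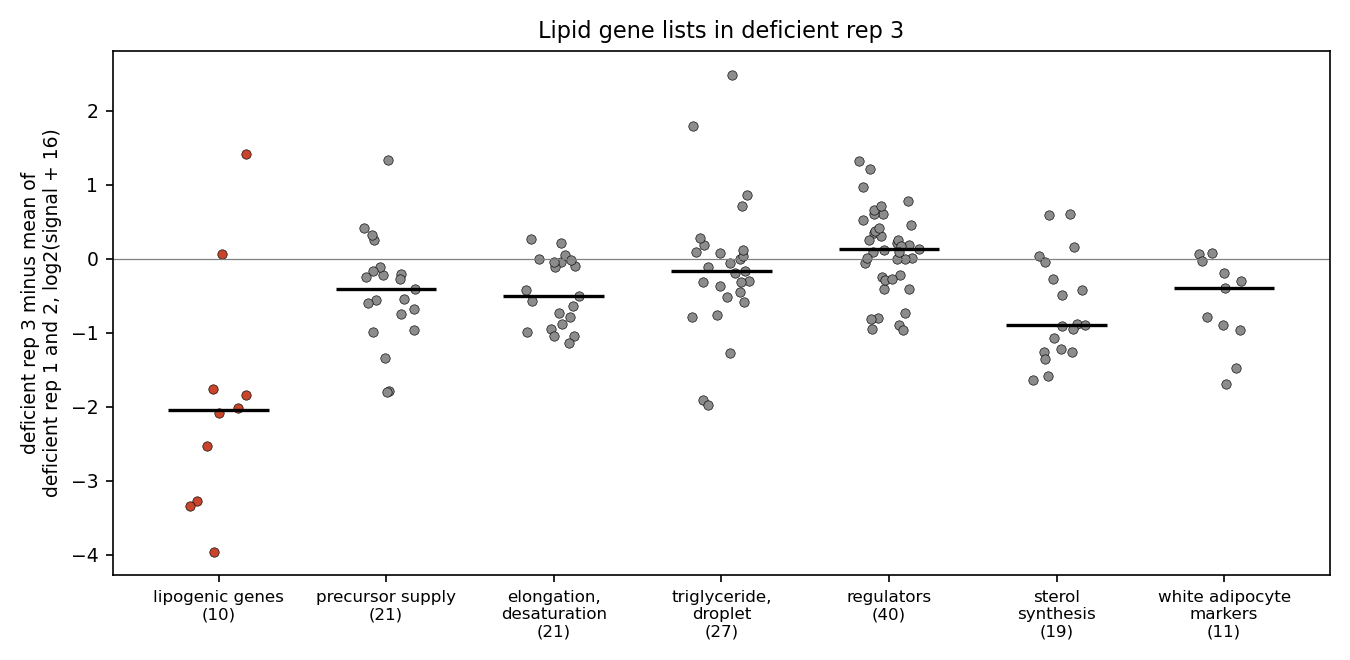
Difference between deficient replicate 3 and the mean of deficient replicates 1 and 2 on log2(signal + 16), with a point for each tested gene of 7 lists and a line at each median. The median was -2.05 for the 10 lipogenic genes, -0.89 for sterol genes, -0.40 for white adipocyte markers and 0.13 for regulators; Cidec, Lipe, Pparg and Cebpa count in 2 lists.

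Levels of marker genes were set beside this pattern, since adipocytes are rich in lipogenic transcripts. Of 14 white adipocyte markers, 11 had a probe set with a single symbol, and 5 of the 14 are also in the lipid lists. Their summed signal ran from 27836 to 34913 in wild type arrays, and was 28606, 34855 and 27668 in deficient replicates 1, 2 and 3. Most of this sum came from Car3, Fabp4 and Lpl. In 7 of the 11 markers deficient replicate 3 was the lowest of the deficient arrays. Adipoq, the adiponectin gene, read 1480.5 there and 2924.7 to 4154.8 in the other 5 arrays. In deficient replicates 1, 2 and 3, Retn, the resistin gene, read 1937, 1645.5 and 541, and Cidec, a droplet protein gene, 322.3, 504.9 and 226.6. The adipogenic factor gene Cebpa read 478.3, 486.3 and 251.9, and Pparg, another such factor gene, 169.1, 122.7 and 66.5. Wild type arrays read 462.8 to 970.3 for Retn, 134.7 to 338.8 for Cidec, 176.8 to 388 for Cebpa and 73.3 to 125 for Pparg. Deficient replicate 3 thus lay inside the wild type range in Retn, Cidec and Cebpa and below it in Pparg. Lpl read 4878, 6680.9 and 6014.3 in deficient replicates 1, 2 and 3, and Car3 8638.6, 11668.5 and 10512.3. Fabp4 read 8280.3 in deficient replicate 3 and 7599.6 to 10195.8 in the other arrays, and Lep was dim in all arrays, from 2.6 to 63.2. Of the 11, 0 lay at least 2-fold below all other arrays in deficient replicate 3.

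Brown adipocyte, skin and macrophage markers also varied. The summed signal of 8 brown adipocyte markers was 8122 to 10039 in wild type and 5538 to 6871 in deficient arrays, with Ucp1 at 356.7 to 1481.2 and 12.7 to 43.8. Cox8b, at 4858.3 to 7780, made up most of that sum. Of 7 tested brown markers, 5 had a negative log2 difference. By limma 2 of them fell (Ucp1 and Cidea) and 1 rose, where 1.46% of all genes fell and 1.3% rose. The 1 that rose was Dio2, a thyroid hormone deiodinase gene, with 29.1 to 70.3 in wild type and 191.7, 174.5 and 90.8 in deficient arrays. In the other marker lists, 2 of 10 macrophage markers rose (Mpeg1 and Lgals3) and 1 of 10 hair follicle and sebaceous gland markers fell (Tchh). Of 11 white adipocyte and 10 muscle fibre markers 0 were called. The sum of 10 hair follicle and sebaceous gland markers was 1990, 935 and 298 in wild type replicates 1, 2 and 3 and 205 to 268 in deficient arrays, with Tchh, a hair follicle protein, at 0.2 to 3.9 in the deficient ones. Deficient replicate 3 held the least of these of all 6 arrays, and wild type replicate 3, the highest array for 7 of the 10 lipogenic genes, the least of its group. The sum of 10 macrophage markers was 2188 to 3301 in wild type and 10870, 7566 and 4324 in deficient replicates 1, 2 and 3, so deficient replicate 3 held the least of its group. The sum of 10 muscle fibre markers was 103412 to 112181 in wild type, and 83636, 110713 and 106029 in the deficient arrays in order. The actin control was read as the signal of its 5 prime over that of its 3 prime probe set. It stood at 1.04 to 1.15 in wild type and at 0.819, 0.510 and 0.573 in deficient replicates 1, 2 and 3. The Gapdh control, read likewise, stood at 0.961 to 1.19 in wild type and at 1.15, 0.886 and 1.01 in the deficient arrays in order. In Gapdh the groups overlapped. The part of these other cell types and of RNA quality in the lipogenic signals was not tested.

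Profiles over the 6 arrays were also compared with that of Fasn by the root mean square difference of mean-centred log2 values, a description over 13112 genes. Thrsp (0.28) and Acly (0.30) were the closest of all genes, followed by Elovl6 (0.56) and Acaca (0.66). Me1 (0.74), Scd1 (0.78) and Dgat2 (0.80) were also among the nearest 12, while Srebf1 (1.52) and Acacb (1.95) were at ranks 5368 and 12783, with a median of 1.56 over all genes. The nearest genes outside the 10 were Agpat2 (0.69), Orm1 (0.77), an acute phase plasma protein gene, Gtpbp3 (0.78), a mitochondrial tRNA modification gene, and Ppp1r3b (0.79), which targets a phosphatase to glycogen. Tkt and Mcpt4, a mast cell protease gene, both at 0.80, came next. Of these 6, Agpat2 and Tkt belong to the lipid lists. All 6 also lay at least 2-fold below all other arrays in deficient replicate 3, on signal + 16. In that array Gtpbp3 read 3 and Mcpt4 3.4 signal units, under the filter level of 13.9. Mcpt4 read 128.6, 90.7 and 50.9 in wild type replicates 1, 2 and 3, where Fasn was highest in replicate 3.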

How the data were processed

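The authors deposited 1 signal intensity per probe set, on a linear scale, for each mouse; the values show that arrays had been scaled, with a 2% trimmed mean of 100 in each. The labels' protocols give TRIzol and RNeasy extraction and biotinylated cRNA; the sources used here do not name the signal algorithm. Probe sets were named through the platform annotation and RefSeq (GRCm38.p6) identifiers: 34945 had 1 symbol, 932 several and 9160 none, beside 64 controls. Signals became log2(signal + 16), and since array medians differed by 0.226 at most (limit 0.5) nothing was centred. Probe sets under the 40th percentile (13.9 signal units) were dropped, and the brightest probe set stood for each gene. The 13113 genes were fitted with limma 3.58.1 in R 4.3.3 (data.table in version 1.17.8; intensity trend, two-sided, Benjamini-Hochberg, call under 0.05), and the steps were tested on simulated data.

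Members, lists and the naming rule were chosen with earlier results of these data known. The rule took all 10 members, in each other list the called genes (up to 4; with under 2 calls the 2 smallest p), the 6 profiles nearest to Fasn, and Adipoq, Lep, Ucp1, Tchh, Ckm and Acta1. Alternatives were other normalizations, pseudocounts, filters, probe set rules and priors, blocks, each library left out and, added after seeing the data, wild type replicate 3 as the only wild type library. Libraries left out had filter and probe sets chosen anew.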

Additional observations from a re-analysis of the deposited data

How the results depend on the processing

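The direction of the members' median held in all 17 alternatives, from -1.67 to -0.44 on the log2 scale. With each library left out it ran from -1.52 to -0.44, and the -0.44 came without deficient replicate 3. The other filters, the fit with no intensity trend and both blocks could not move the log2 differences of the members, and their median stayed at -1.11. Those settings are therefore no check of the direction. Of single members, Acacb changed sign in 3 alternatives and Srebf1 in 1, and the other 8 in 0. The 362 genes called by limma became 214 with no filter, 171 with no intensity trend, 1160 with the Y-linked transcript block, 19 with wild type replicate 3 as the only wild type library, and 65 to 665 with 1 library left out. The 5 other lipid genes called became 3 with median centring, 3 with no filter, 2 with no intensity trend, 15 with the Y-linked transcript block and 1 to 8 with 1 library left out; with wild type replicate 3 as the only wild type library limma called 0, with 13 at an unadjusted p under 0.05. The cause was not tested. With the replicate block 864 genes and 15 other lipid genes were called. Of the named genes that did not pass, Hacd1, Prkag3, Prkab2 and Nsdhl passed with the replicate block (limma adjusted p = 0.0257, 0.00763, 0.0158 and 0.0452) and with the Y-linked transcript block (0.0153, 0.00494, 0.0128 and 0.0390). Deviations of same-numbered arrays correlated at 0.15, 0.07 and 0.30, 1 pair was under 0.1 and wild type replicate 2 correlated best with deficient replicate 1 (0.20), so the numbers were not taken to pair the mice. Signals near the filter and 3 arrays a group limit what can be called.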

Other observations

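Deficient replicate 3, low in lipogenic genes, held other genes far above the remaining arrays. These were named after their values were seen, as the 6 with the largest log2 gap to the next array among the 58 that were at least 2-fold higher. Fbxo32, the atrogin-1 ubiquitin ligase of muscle, read 2814.5 there and 143 to 248.4 elsewhere. Pdk4, the kinase that shuts off pyruvate dehydrogenase, read 6603.2 against 779.8 to 1235.7, and Bcl2l11, a pro-apoptotic gene, 1571.3 against 87 to 276.2. Ank3 read 3035.4 against 549.9 to 778.5, Depp1 1276 against 129.1 to 326.5, and Tacc2 5402.4 against 925.4 to 1707.8. With 1 array there is no test of these values.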
